A study of Mus musculus with 18 samples.

Results

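The 10 genes described here, Axin2, Nkd1, Notum, Rnf43, Znrf3, Lgr5, Sp5, Lef1, Tcf7 and Ctnnb1, are canonical Wnt feedback and target genes together with the gene of beta-catenin itself. They were chosen by name from the 57126 genes counted, and all 10 were followed gene by gene in each of 18 mouse mammary tumors. Bulk RNA sequencing, depleted of ribosomal RNA, covered 7 MaP R172H/- tumors, 5 MaP R245W/- tumors and 6 MaP -/- tumors, called null below. In these female F1 hybrids of BALB/c and C57BL/6, injection of an adenovirus carrying Cre recombinase (Ad-Cre) into the mammary ducts of young adults recombined Trp53 in epithelial cells. Those cells then carried 1 mutant and 1 null allele, or no functional allele in MaP -/- mice. Trp53 was left intact in the other cells of the tumor, such as fibroblasts and leukocytes. A Rosa26 LSL-TdTomato reporter allele was present in 3 MaP R172H/- and 3 MaP R245W/- mice and in none of the null mice. The 6 null tumors came from 4 mice, with tumors T1 and T2 from each of JM663 and JM833. Bulk tumor RNA mixes all cells, so fewer cells of a type and less RNA per cell cannot be told apart.

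In canonical Wnt signaling, a Wnt ligand bound to Frizzled and LRP5/6 receptors stops the destruction complex from degrading beta-catenin, which then enters the nucleus and binds TCF/LEF factors on DNA. Several of the genes switched on in this way encode brakes on the same pathway, so their transcripts are widely read as a measure of its activity. In the mammary gland the pathway is known for its role in ductal growth and in basal stem cells, and its activation by viral insertion gives tumors in mice.

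RefSeq promoter sequences of GRCm38.p6, 250 bases before to 50 bases after each start, were matched for 7 of the 10 genes, with 13 promoters in all. The TCF/LEF core was searched on both strands as CTTTG followed by a pair of bases that are each A or T. A match was found in promoters of 2 genes, Sp5 and Lef1, where 18.9% of 27025 genes and 16.9% of 32851 promoters held at least 1 match. Sp5 had a match on the forward strand 104 bases before its start and another on the reverse strand 222 bases before it. Lef1 had 1 match on the reverse strand, 147 bases before an internal start that is the fourth one in the table, and none at its 3 other promoters. With the form in which CTTTG is followed by A and then by A or T, found in 9.9% of genes and 8.7% of promoters, Sp5 was the 1 gene left. The promoters with a match, and that of Axin2, which had none, are shown because these genes recur in the results, with the matches in capitals.
Sp5, chr2:70474673-70474972, forward strand: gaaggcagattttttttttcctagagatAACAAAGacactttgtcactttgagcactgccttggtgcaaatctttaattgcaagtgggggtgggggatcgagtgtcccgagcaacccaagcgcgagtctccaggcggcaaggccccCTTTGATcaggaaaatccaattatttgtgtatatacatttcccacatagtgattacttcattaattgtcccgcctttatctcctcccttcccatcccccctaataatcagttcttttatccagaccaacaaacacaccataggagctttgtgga
Lef1, chr3:131156044-131156343, forward strand: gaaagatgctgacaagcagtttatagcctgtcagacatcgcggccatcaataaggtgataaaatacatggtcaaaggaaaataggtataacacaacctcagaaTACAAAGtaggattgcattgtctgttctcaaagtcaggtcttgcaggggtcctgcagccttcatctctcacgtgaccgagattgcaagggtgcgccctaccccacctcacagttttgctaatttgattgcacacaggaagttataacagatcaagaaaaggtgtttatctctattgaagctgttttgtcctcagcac
Axin2, chr11:108920099-108920398, forward strand: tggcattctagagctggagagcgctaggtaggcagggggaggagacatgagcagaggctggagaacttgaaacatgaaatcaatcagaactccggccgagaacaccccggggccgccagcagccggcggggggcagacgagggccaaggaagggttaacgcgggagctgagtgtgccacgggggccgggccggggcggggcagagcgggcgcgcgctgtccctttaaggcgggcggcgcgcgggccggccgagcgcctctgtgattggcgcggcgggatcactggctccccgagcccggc

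Total counts per tumor were lowest in the MaP R172H/- group, between 23113578 and 27930163, and reached 37365062 in the MaP R245W/- group. Levels are given as CPM, the counts of a gene scaled to the size of its library. Trp53 was at 10.8 to 50.3 CPM in MaP R172H/-, 9.09 to 59.0 in MaP R245W/- and 9.43 to 21.6 in null tumors, so the groups overlapped. In MaP R172H/- the overlap was YZ11 alone, and the next lowest tumor, YZ10, had 41.4 CPM. In MaP R245W/- only JM1233 at 11.4 CPM and RM0014 at 9.09 CPM were not above all null tumors. All MaP R172H/- libraries were sequenced on a HiSeq instrument and all others on a NovaSeq with longer reads, hence platform and genotype cannot be told apart. The subtypes the study gave the tumors, luminal B or HER2-enriched for MaP R172H/- and triple-negative for the others, cannot be told apart from genotype either. Histology largely followed genotype as well. The study classed every MaP R172H/- tumor as a nonmetaplastic adenocarcinoma. Of the MaP R245W/- tumors some were metaplastic and some not, and the null tumors of mice JM663 and JM833 were all metaplastic. Keratin and other luminal markers, 12 genes in all, summed to 574 to 11696 CPM in MaP R172H/-, 518 to 8392 in MaP R245W/- and 166 to 3674 in null tumors, and none of the 12 was at 0 throughout a group. JM779-T1 had the lowest sum. Basal markers summed to 470 to 2750 CPM in MaP R172H/- tumors, 111 to 550 in MaP R245W/- and 62.3 to 1029 in null tumors, and their part in the results was not tested. The text on the animals and the sample labels disagree on which tumor of mouse JM779 and of mouse JM836 was sequenced, so no histology is given for these libraries.

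The comparison of mutant with null tumors asked whether the feedback and target genes differed with the p53 genotype. None of the 10 genes passed an FDR below 0.05 in MaP R172H/- against null tumors with edgeR's quasi-likelihood test, where 8.4% of 20954 genes tested did, and none passed with a DESeq2 Wald test. Axin2 was the 1 gene with an unadjusted p below 0.05, against 24.7% of all genes tested. Of the 10 genes 7 had a positive fold change, with a median of 0.30 on the log2 scale, beside 0.0027 over all genes tested. The number of MaP R172H/- tumors above all null tumors was 5 of 7 for Axin2, 3 for Tcf7, 2 for Ctnnb1, and 1 each for Lgr5, Sp5 and Rnf43. It was 0 for Nkd1, Notum, Znrf3 and Lef1. Thus 6 of the 10 genes had at least 1 such tumor, where 50.4% of all genes tested did. At least 5 such tumors, as for Axin2, were seen in 7.4% of genes tested, at least 3 in 18.5% and at least 2 in 29.4%.

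**Figure D1:**
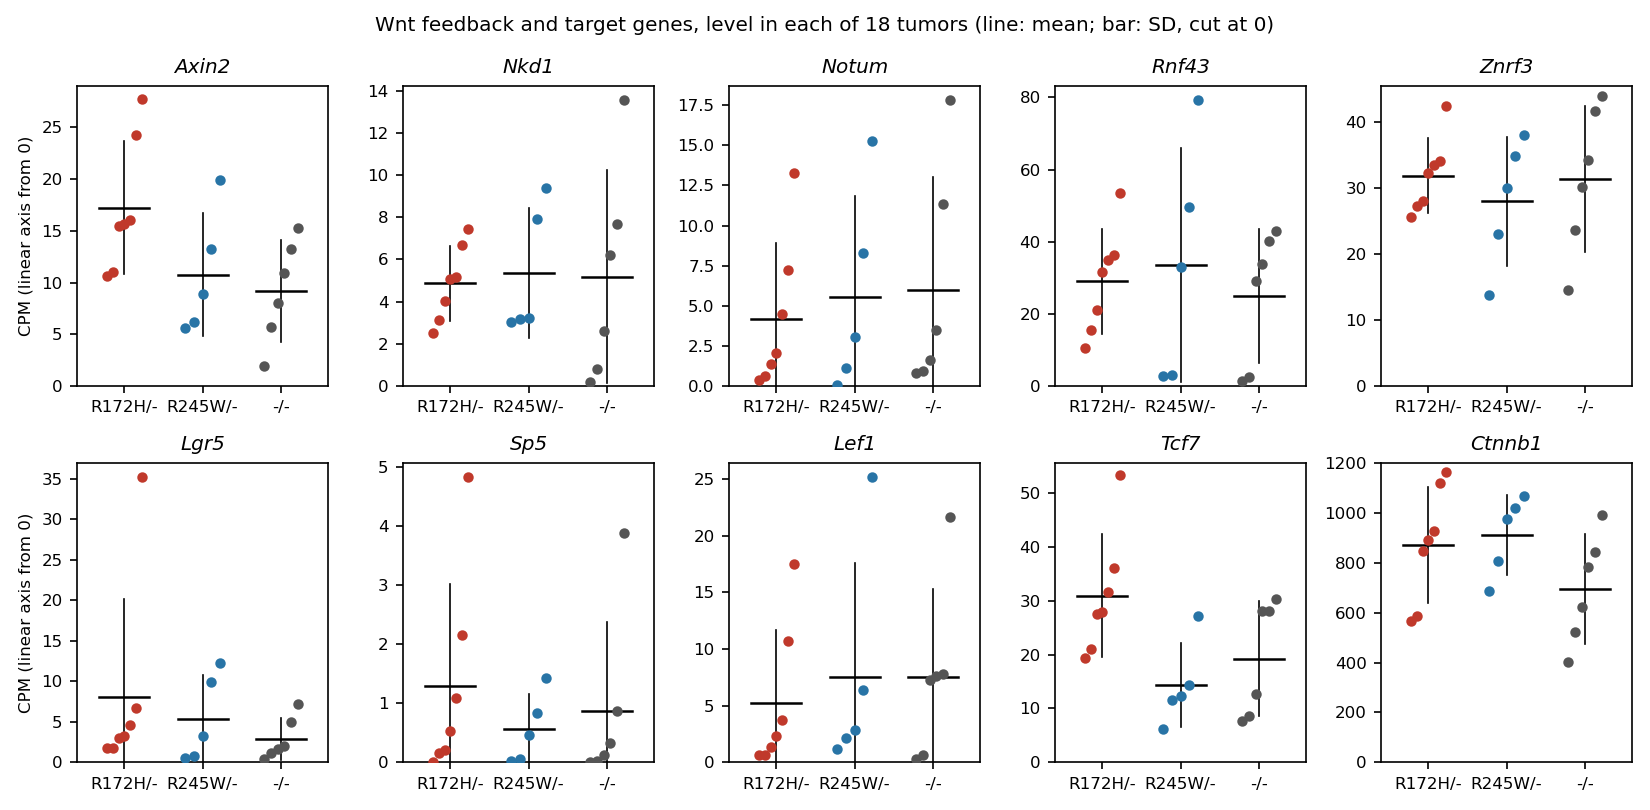
Level of the 10 genes in CPM (linear vertical axis from 0) in 7 MaP R172H/- tumors (red), 5 MaP R245W/- tumors (blue) and 6 null tumors (gray). Each point is 1 tumor, horizontal lines are means and vertical bars SD; the groups overlap for every gene, and Axin2 has 5 red points above all gray ones.

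Axin2, on chromosome 11 of GRCm39 from 108811169 to 108841609, encodes a scaffold of the destruction complex and is a commonly used reporter of the pathway. In MaP R172H/- tumors it was at 10.6 CPM at the lowest, 15.7 at the median and 27.7 at the highest. Levels in MaP R245W/- tumors were 19.9 CPM in JM1233, 13.2 in JM1126, 8.93 in JM1133, 6.21 in JM1564 and 5.56 in RM0014. Null tumors ran from 1.94 CPM in JM779-T1 over a median of 9.46 to 15.2 in JM833-T1. The MaP R172H/- tumors YZ11 and YZ4 stood highest, YZ3 and YZ6 lay within the null range, and the other 3 lay just above it. The means were 17.3 ± 6.44 CPM (SD, n = 7), 10.8 ± 5.93 (SD, n = 5) and 9.19 ± 4.94 (SD, n = 6). Against null tumors the MaP R172H/- group differed by 0.94 on the log2 scale (95% interval 0.09 to 1.79, standard error 0.40, FDR = 0.160 from edgeR). Over 22 alternatives the FDR lay between 0.109 and 0.277, and the fold change between 0.73 without JM779-T1 and 1.14 without JM833-T1. For MaP R245W/- against null it was 0.22 (interval -0.86 to 1.31), and -0.12 without JM1233.

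Nkd1, on chromosome 8 from 89247890 to 89324577, encodes naked cuticle 1, which binds Dishevelled and restrains the signal. It was at 2.53, 5.05 and 7.44 CPM at the lowest, median and highest of the MaP R172H/- tumors. The MaP R245W/- values were 9.41 CPM in RM0014, 7.91 in JM1564, 3.20 in JM1126, 3.17 in JM1133 and 3.02 in JM1233. Null tumors spanned more than both mutant groups, from 0.194 CPM in JM779-T1, which is 6 counts, over a median of 4.42 to 13.5 in JM836-T1. Its log2 fold change against null was -0.06 in MaP R172H/- (interval -1.497 to 1.38) and 0.04 in MaP R245W/- (interval -1.74 to 1.81). Without JM836-T1 these became 0.50 and 0.59.

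Notum, on chromosome 11 from 120541446 to 120552019, encodes a secreted enzyme that removes the lipid from Wnt ligands. Its levels were 0.364, 2.03 and 13.3 CPM at the lowest, median and highest of the MaP R172H/- tumors. Among MaP R245W/- tumors it was at 15.3 CPM in JM1126, 8.32 in RM0014, 3.05 in JM1133, 1.10 in JM1233 and 0.0618 in JM1564, the last being 2 counts. Null tumors ran from 0.810 over a median of 2.55 to 17.8 CPM, with JM779-T1 and JM663-T2 far above the other 4. YZ3 and YZ4 of MaP R172H/- and JM1564 of MaP R245W/- lay below all null tumors. The log2 fold change against null was -0.52 in MaP R172H/- (interval -2.45 to 1.41) and -0.11 in MaP R245W/- (interval -2.49 to 2.28). Both were above 0 without JM779-T1, at 0.22 and 0.61.

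Rnf43 (chromosome 11, 87553548 to 87626377) and Znrf3 (chromosome 11, 5226324 to 5394939) encode related membrane ubiquitin ligases that clear Frizzled receptors from the cell surface. Rnf43 was at 10.4 CPM at the lowest, 31.5 at the median and 53.4 at the highest in MaP R172H/- tumors. The MaP R245W/- tumors had 79.2 CPM in JM1564, 49.6 in RM0014, 32.9 in JM1133, 2.94 in JM1126 and 2.78 in JM1233. In null tumors it ran from 1.23 over a median of 31.5 to 43.1 CPM. The 4 tumors JM1233, JM1126, JM663-T2 and JM779-T1, all outside the MaP R172H/- group, lay below 3 CPM, and the 14 others at 10.4 CPM or more. Znrf3 varied far less, with 25.5, 32.2 and 42.4 CPM in MaP R172H/- tumors. Its MaP R245W/- values were 37.99 CPM in JM1133, 34.9 in JM1564, 30.0 in RM0014, 23.05 in JM1233 and 13.8 in JM1126, and null tumors had 14.47, 32.2 and 43.9 CPM. JM1126 and JM663-T2 were the lowest tumors for Znrf3. Against null tumors, the log2 fold changes in MaP R172H/- were 0.25 (interval -1.19 to 1.69) for Rnf43 and 0.05 (interval -0.44 to 0.54) for Znrf3. The values for MaP R245W/- were 0.41 (interval -1.76 to 2.59, or -0.18 without JM1564) and -0.17 (interval -0.88 to 0.53).

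Lgr5, on chromosome 10 from 115286216 to 115423685, encodes a receptor for R-spondins, the secreted proteins that keep RNF43 and ZNRF3 from removing Frizzled. In MaP R172H/- tumors it was at 1.76 CPM at the lowest, 3.21 at the median and 35.2 at the highest, which was YZ4. The next tumor of that group, YZ3, had 6.71 CPM and lay inside the null range. The MaP R245W/- tumors had 12.2 CPM in JM1233, 9.98 in JM1126, 3.27 in RM0014, 0.804 in JM1564 and 0.496 in JM1133, so that JM1233 and JM1126 lay above all null tumors. In null tumors it ran from 0.388 over a median of 1.81 to 7.22 CPM. Its log2 fold change in MaP R172H/- against null was the largest of the 10 genes at 1.52 (interval -0.26 to 3.29, standard error 0.83, FDR = 0.278 from edgeR), and it was 0.28 without YZ4. For MaP R245W/- it was 0.88 (interval -1.04 to 2.80).

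Sp5, on chromosome 2 from 70305267 to 70308073, encodes a zinc finger factor that is induced by Wnt signals and tempers other targets. Per kilobase it had the lowest median of the 10 genes. In MaP R172H/- tumors it was at 0, 0.534 and 4.83 CPM at the lowest, median and highest, with YZ11 at the top, YZ3 next at 2.15 CPM and YZ7 without a count. Its MaP R245W/- levels were 1.43 CPM in RM0014, 0.835 in JM1564, 0.458 in JM1133, 0.0640 in JM1126 and 0.0299 in JM1233. Null tumors ran from 0 in JM833-T2 over a median of 0.228 to 3.88 CPM in JM836-T1. A library with 0 counts allows up to 3, by counting error alone. Its difference from null on the log2 scale was 0.59 in MaP R172H/- (interval -1.92 to 3.11), or 2.25 without JM836-T1. That of MaP R245W/- was -0.61 (interval -3.30 to 2.08).

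Lef1 (chromosome 3, 130903919 to 131018005) and Tcf7 (chromosome 11, 52143107 to 52174619) encode TCF/LEF factors that are also Wnt targets and are expressed by T cells. Lef1 was at 0.632 CPM at the lowest, 2.30 at the median and 17.5 at the highest in MaP R172H/- tumors. The MaP R245W/- tumors had 25.2 CPM in RM0014, 6.39 in JM1233, 2.84 in JM1564, 2.17 in JM1126 and 1.18 in JM1133, and null tumors were at 0.259, 7.45 and 21.6 CPM. RM0014, JM833-T2, YZ7 and YZ10 stood above all other tumors, and they come from all 3 groups. The log2 fold change against null was -0.49 in MaP R172H/- (interval -2.51 to 1.52), and 0.17 without JM833-T2. For MaP R245W/- it was -0.0089 (interval -2.22 to 2.21), and -1.24 without RM0014.

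Tcf7 was at 19.3, 27.96 and 53.3 CPM at the lowest, median and highest of the MaP R172H/- tumors, YZ3 being the highest. The MaP R245W/- tumors had 27.1 CPM in JM1133, 14.4 in RM0014, 12.4 in JM1233, 11.6 in JM1564 and 6.24 in JM1126. Null tumors ran from 7.60 over a median of 20.4 to 30.4 CPM and fell into 3 tumors at 28.04 CPM or more and 3 at 12.7 or less. Against null tumors the log2 fold change was 0.71 in MaP R172H/- (standard error 0.36, interval -0.06 to 1.49, FDR = 0.240 from edgeR) and -0.43 in MaP R245W/- (interval -1.44 to 0.58). The 14 T cell markers summed to 24.2 to 61.5 CPM in MaP R172H/-, 15.9 to 102.5 in MaP R245W/- and 25.0 to 217.6 in null tumors, and none was at 0 throughout a group. JM833-T2 had the highest sum, and all 14 markers had a negative fold change in MaP R172H/- against null, 1 of them with an unadjusted p below 0.05. With the T cell markers as a covariate Tcf7 kept its direction in every comparison, whereas Lef1 turned to 0.017 in MaP R172H/- and 0.73 in MaP R245W/- against null.

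Ctnnb1, on chromosome 9 from 120757422 to 120789579, encodes beta-catenin, whose activity is set mainly at the level of the protein. It was at 566, 892 and 1163 CPM at the lowest, median and highest of the MaP R172H/- tumors. MaP R245W/- tumors had 1065 CPM in JM1564, 1020.1 in JM1133, 974 in RM0014, 806 in JM1126 and 688 in JM1233, and null tumors 400.4, 703 and 991 CPM. The tumors YZ11 and YZ2 of MaP R172H/- and JM1564 and JM1133 of MaP R245W/- lay above all null tumors. Against null tumors its log2 fold change was 0.35 in MaP R172H/- (interval -0.17 to 0.87, FDR = 0.398 from edgeR) and 0.39 in MaP R245W/- (interval -0.15 to 0.93). Per kilobase of exon, the median level over 18 tumors was 103.5 CPM for Ctnnb1, above the other 9 genes in every tumor. It was 6.26 for Tcf7, 4.90 for Rnf43, 3.89 for Znrf3 and 1.75 for Axin2, and between 0.183 and 0.551 for Nkd1, Notum, Lef1, Lgr5 and Sp5. Below Ctnnb1, the ranges of neighbors in this order overlapped.

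Among MaP R245W/- against null tumors, none of the 10 genes passed an FDR below 0.05 with edgeR, as none (0%) of 21452 genes tested did. None had an unadjusted p below 0.05, where 11.8% of all genes did, and none passed with a DESeq2 Wald test. For 5 of the 10 the fold change was positive, against 51.8% of all genes tested, and the median was 0.015. At least 1 MaP R245W/- tumor lay above all null tumors for 5 genes, against 51.1% of all genes tested: Rnf43, Lgr5 and Ctnnb1 with 2 tumors each, and Axin2 and Lef1 with 1 each. At least 2 such tumors were seen for 25.1% of all genes. When counts were simulated from these libraries with a log2 change of 1.5 in 100 genes, 20 of them were recovered. With the libraries of MaP R172H/- against null 40 were recovered, so a change of this size was often missed in the simulations. Another 100 genes in each simulation were changed by 3 on the log2 scale, of which 78 and 88 were recovered, MaP R245W/- given first. The simulations called 101 and 133 genes in all, 3 and 5 of them genes that had not been changed, against 0 and 1760 in the data. The p needed to pass the FDR thus differed, and recovery in the data may differ too.

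Comparing the mutants with each other, none of the 10 genes passed an FDR below 0.05, against 9.4% of 22481 genes tested, and none passed with a DESeq2 Wald test. Tcf7 was the 1 gene with an unadjusted p below 0.05, where 25.9% of all genes had one. It was higher in MaP R172H/- tumors by 1.11 on the log2 scale (standard error 0.41, interval 0.24 to 1.97, FDR = 0.0971 from edgeR), with 5 of 7 tumors above all MaP R245W/- tumors, which was seen or exceeded for 9.18% of all genes. JM1133 was the exception among the MaP R245W/- tumors, and without it the difference was 1.47 with an FDR of 0.0427 from edgeR. For Axin2 the difference was 0.68 (interval -0.23 to 1.59), and for Ctnnb1 it was -0.06 (interval -0.56 to 0.43). With the luminal markers as a covariate, the sign in MaP R172H/- against null turned for Notum (0.31), Sp5 (-0.67) and Znrf3 (-0.027), and in MaP R245W/- against null for Notum (0.71) and Rnf43 (-0.59).

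**Figure D2:**
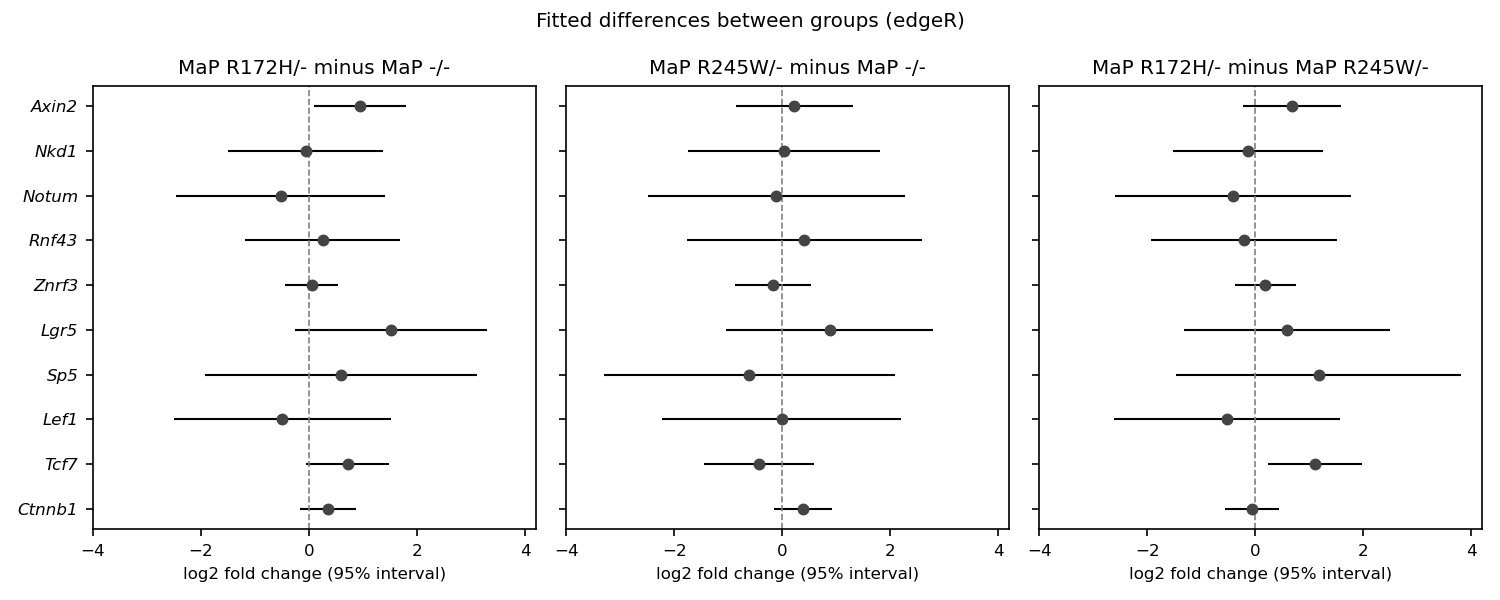
Log2 fold changes from edgeR (horizontal axis; points) with 95% intervals (lines) for the 10 genes in MaP R172H/- against null, MaP R245W/- against null and MaP R172H/- against MaP R245W/- tumors. The interval leaves out 0 for Axin2 in the left panel (0.09 to 1.79) and for Tcf7 in the right panel (0.24 to 1.97), and neither passed the FDR threshold.

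The tumors that stood high differed from gene to gene. Of the MaP R172H/- tumors, YZ2 had 3 genes above all null tumors (Axin2, Tcf7 and Ctnnb1), YZ11 also 3 (Axin2, Sp5 and Ctnnb1), YZ4 and YZ7 had 2, and YZ3, YZ6 and YZ10 had 1. YZ3 and YZ4 each had Notum below all null tumors. Among the MaP R245W/- tumors, JM1126 had Lgr5 above, and Tcf7 and Znrf3 below, all null tumors. Within the null group, JM779-T1 was the lowest of all 18 tumors for Axin2, Lef1, Nkd1, Lgr5 and Rnf43 and the highest for Notum. The highest tumor exceeded the lowest 97.3-fold for Lef1, 90.9-fold for Lgr5, 69.8-fold for Nkd1 and 64.5-fold for Rnf43. It did so 14.3-fold for Axin2, 8.54-fold for Tcf7, 3.18-fold for Znrf3 and 2.90-fold for Ctnnb1. The SD of log2 CPM within groups was largest for Notum at 2.09 and Sp5 at 2.02. It was 1.97 for Lef1, 1.84 for Rnf43, 0.81 for Axin2 and 0.41 for Ctnnb1, beside a median of 0.58 over all genes tested. Among the 1000 genes nearest in level, 95.9% had a smaller SD than Lef1 and 98.2% than Rnf43. For Axin2 this share was 70.6% and for Ctnnb1 53%.

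**Figure D3:**
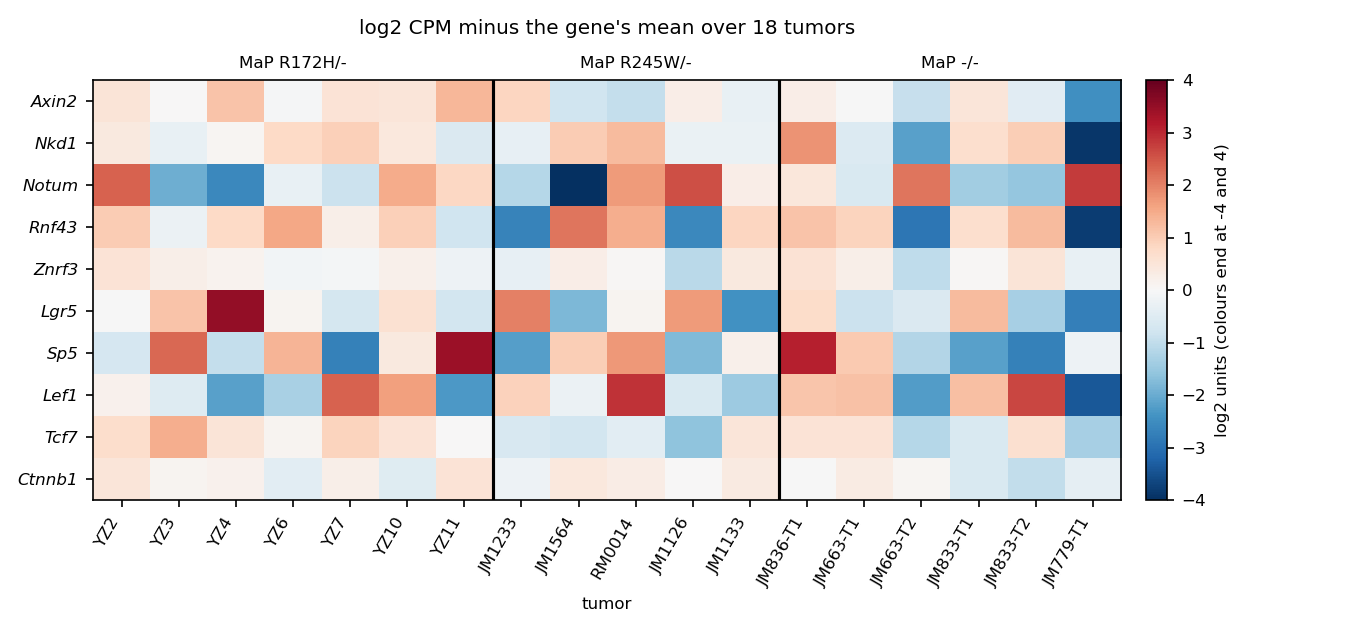
Log2 CPM of the 10 genes (rows) in 18 tumors (columns, by group), each minus the gene's mean over the tumors; red is above and blue below that mean, and the colours end at -4 and 4. JM779-T1, in the last column, is blue for 5 genes for which it is the lowest tumor and red for Notum, for which it is the highest.

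The tumors T1 and T2 of the same null mouse differed in several of these genes. In mouse JM663, T1 had 33.9 CPM of Rnf43 and T2 had 2.37. Lef1 was at 7.59 and 0.659 CPM, Tcf7 at 28.04 and 8.64, and Notum at 1.63 and 11.4, in the opposite direction. In mouse JM833, T1 was higher for Lgr5, at 7.22 against 1.15 CPM, and lower for Lef1, at 7.77 against 21.6.

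The 45 pairs of genes were then correlated over 16 mice, on log2 CPM centred on the group means, so that differences between genotypes do not enter. Nkd1 and Rnf43 were the 1 pair to pass an FDR below 0.05 over the 45 pairs (Pearson's r = 0.80, permutation p = 0.00034, FDR = 0.0153). Spearman's rho was 0.84 (permutation p = 0.00242, FDR = 0.109). The coefficient r was 0.70 without JM663 and JM779. It was 0.72 within the 7 MaP R172H/- mice read on the HiSeq and 0.81 within the 9 mice read on the NovaSeq. Among 22480 other genes ordered by r over the same mice, Rnf43 ranked 111 for Nkd1, and Nkd1 ranked 483 for Rnf43. Many genes outside these pairs thus had a higher r with each, so the call does not set the pair apart from all genes. No pair passed with JM779, JM833, JM836 or YZ11 left out, so the call rests on each of these mice. Next came Rnf43 with Znrf3 (r = 0.76, permutation p = 0.00811; rho = 0.76, permutation p = 0.0121; FDR = 0.0912). For Tcf7 with Znrf3 r was 0.76 (permutation p = 0.00444, FDR = 0.0666) and rho 0.70 (permutation p = 0.00829). For Lef1 with Nkd1 r was 0.72 (permutation p = 0.00328, FDR = 0.0666) and rho 0.67 (permutation p = 0.00942), and r was 0.49 without JM779 and RM0014. Within the MaP R172H/- mice these r were 0.33, 0.50 and 0.64, and within the others 0.82, 0.83 and 0.82. Axin2 was most correlated with Lgr5 (r = 0.59, permutation p = 0.0261; rho = 0.57, permutation p = 0.0467; FDR = 0.235). That r was 0.16 within MaP R172H/- mice, 0.77 within the others and 0.66 without JM779 and YZ11. With the remaining genes Axin2 had r between -0.18 and 0.43.

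**Figure D4:**
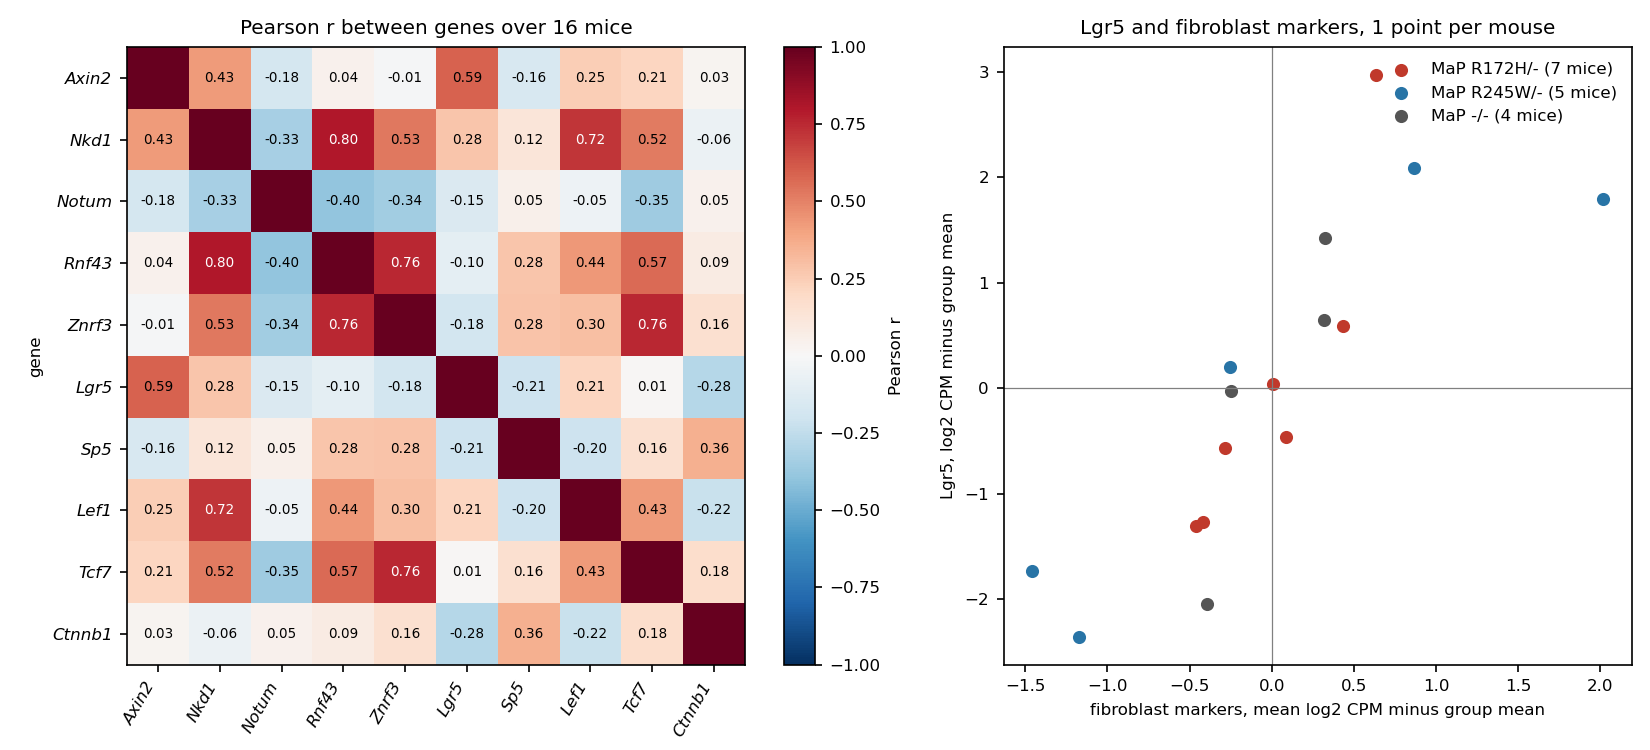
Left, Pearson's r for each pair of the 10 genes over 16 mice (red positive, blue negative), on log2 CPM centred on group means, with Nkd1 and Rnf43 at 0.80. Right, Lgr5 (vertical axis) against the mean of 10 fibroblast markers (horizontal axis), both log2 CPM minus the group mean, 1 point per mouse, coloured by group; the points rise together in each group (r = 0.83).

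Each of the 10 genes was also set beside the mean log2 CPM of 10 marker lists over the same 16 mice, 100 relations in all, a step added after the values had been seen. Lgr5 with the 10 fibroblast markers was the 1 relation to pass an FDR below 0.05 (r = 0.83, permutation p = 6.0e-05, FDR = 0.0060; rho = 0.93, permutation p = 3.0e-05, FDR = 0.0030). It was 0.91 within the 7 MaP R172H/- mice, 0.86 within the 9 others, and 0.88 without JM1126 and JM1233. These were the tumors with the highest fibroblast marker sums, 33708 and 15859 CPM, and both had Lgr5 above all null tumors. The study classed JM1126 as a sarcoma and JM1233 as a metaplastic sarcomatoid carcinoma. Whether the markers came from fibroblasts or from tumor cells was not tested. In YZ4, with the highest Lgr5, the fibroblast sum was 7604 CPM, within the range of 2740 to 8289 CPM of its group. On the mean log2 CPM used for the correlation, YZ4 was the highest of the MaP R172H/- mice, 0.64 above the group mean. YZ3 was next at 0.44. The basal marker sum of YZ4, 2750 CPM, was the highest of all tumors. Rnf43 went with the luminal markers at r = 0.66 and rho = 0.64 (permutation p = 0.0126 and 0.0205, FDR = 0.266 and 0.362), and at r = 0.26 without JM1233 and JM779. Its r was -0.042 within the 7 MaP R172H/- mice and 0.88 within the 9 others, hence it did not hold within the former. With the macrophage markers Rnf43 had r = -0.68 (permutation p = 0.0291, FDR = 0.266) and rho = -0.59 (permutation p = 0.0543). That r was 0.098 within MaP R172H/- mice, -0.75 within the others and -0.40 without JM1233 and JM779. With the T cell markers r was -0.23 for Tcf7 (permutation p = 0.460; rho = -0.19, permutation p = 0.515) and -0.040 for Lef1 (permutation p = 0.893; rho = -0.16, permutation p = 0.569). Sp5 went with the luminal markers too (r = 0.64, permutation p = 0.0176, FDR = 0.266; rho = 0.75, permutation p = 0.00269, FDR = 0.134), with r = 0.79 within MaP R172H/- mice, 0.53 within the others and 0.74 without JM1233 and JM779. Lgr5 had r = -0.70 with 8 proliferation markers (permutation p = 0.00439, FDR = 0.219; rho = -0.70, permutation p = 0.00602), with -0.52 within MaP R172H/- mice, -0.79 within the others and -0.57 without JM1564 and JM779. Ctnnb1 had r = -0.66 with the T cell markers (permutation p = 0.00789, FDR = 0.263; rho = -0.59, permutation p = 0.0213), with -0.51 and -0.80 within these sets of mice and -0.55 without JM833 and RM0014. Axin2 had r = -0.67 with the proliferation markers (permutation p = 0.0293, FDR = 0.266; rho = -0.59, permutation p = 0.0370). This r was -0.34 without JM1564 and JM779, -0.26 within MaP R172H/- mice and -0.79 within the others. The part of the fibroblast markers in the group comparisons of Lgr5 was not tested.

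Among 22480 other genes, the one most like Axin2 in its centred pattern over 16 mice was Tmem62, with r = 0.90. It was followed by AA413626, Clip1, Igkv6-20, Rsbn1l, Gm48965, the Frizzled receptor gene Fzd10, Gm54899, Gm28914 and Gm42651, at r = 0.89 to 0.82. None of the other 9 genes was among them, and the nearest, Lgr5, ranked 630. The genes most like Lgr5 were Gxylt2, Sytl2 and Gm50226 (r = 0.96 to 0.94), and those most like Rnf43 were Gm42440, Cd164l2 and E030013I19Rik (r = 0.97 to 0.96). Nkd1 was followed most closely by Ebf2, Lmcd1 and Gm42438, and Znrf3 by Gm11915, Gm16984 and Krba1. For Sp5 these were Tjp1, Ubqln1 and Fbxw9, and for Ctnnb1 Prelid2, Rhbdd1 and mt-Co1. Lef1 was followed by Gm42449, Cep85l and Gm17823, and Notum by Notumos, Socs3 and Phf3. Gm42449 lies inside Lef1 on the same strand and Notumos overlaps Notum on the opposite strand, so reads may be shared between these genes, and whether counting used the strand is not given in the sources used here. Gm42651 lies inside Clip1 and Gm17823 inside Cep85l, each on the same strand, so these pairs may share reads too. Of the genes most like Axin2, Igkv6-20, Gm28914 and AA413626 were low, at 0.878, 0.596 and 1.35 CPM in their highest tumor.

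The other genes of the pathway, 77 in 5 lists by role, were read in the same fits. In MaP R172H/- against null tumors 6 of the 66 tested were higher and none lower at an FDR below 0.05, where 3.67% of all genes tested were higher and 4.73% lower. In either direction that is 9.09% of the pathway genes beside 8.4% of all genes, a share near the background. Of the 66, 42 (63.6%) had a positive fold change, beside 50.2% of all genes tested. The median on the log2 scale was 0.23, beside 0.0027 over all genes tested. Ccnd1, which encodes cyclin D1, was the 1 gene with all 7 MaP R172H/- tumors above all null tumors. It was at 283, 385 and 579 CPM at the lowest, median and highest of these and at 64.6, 169 and 237 CPM in null tumors, and 2.01% of all genes tested were separated in this way. Its fold change was 1.39 on the log2 scale, with a standard error of 0.31 (FDR = 0.0142 from edgeR). Myc rose by 1.01 (FDR = 0.0121), with 75.7 to 183 CPM against 43.1 to 78.2 CPM.

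Among 15 TCF/LEF factors and nuclear cofactors 3 rose: Bcl9l, a beta-catenin coactivator, by 1.04 (FDR = 0.0150), the corepressor Tle1 by 0.66 (FDR = 0.0312) and Tle5, a short member of the TLE family, by 1.16 (FDR = 0.0189). Tle2 was at 0.87 (FDR = 0.245), and the other 11 did not pass either. The destruction complex list of 12 genes also held genes that are not core parts of the complex, such as Siah1a and Tnks. None of the 12 passed, 6 were above 0 and the median was 0.04. Apc2 was at 0.87, Siah1a at -0.51 and Tnks at -0.50. Of 9 tested genes of Wnt receptors and the R-spondin axis, 8 were above 0 and 1 rose, Dvl1 (0.61, FDR = 0.0361), which encodes a Dishevelled protein. Rspo1 was at 2.46 (FDR = 0.332), or 0.47 without YZ7 and 4.48 without JM833-T1, and Lgr6 at 1.41 (FDR = 0.0851). None of 12 tested inhibitors passed, and 6 of them were above 0. Shisa2 was at 1.98 (FDR = 0.107), Nkd2 at 0.90 and Dkk2 at -1.64, the last being 0.04 without JM779-T1. Of 18 other reported target genes 2 rose, Ccnd1 and Myc, with Wnt6 at 3.99 (FDR = 0.123) and Procr at -1.497 (FDR = 0.174). Wnt6 was at 0.80 with a DESeq2 Wald test, its median of 0.316 CPM in MaP R172H/- tumors was below the 0.497 CPM of null tumors, and YZ7 held 50.7 CPM. Procr was at -0.87 without JM663-T2.

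**Figure D5:**
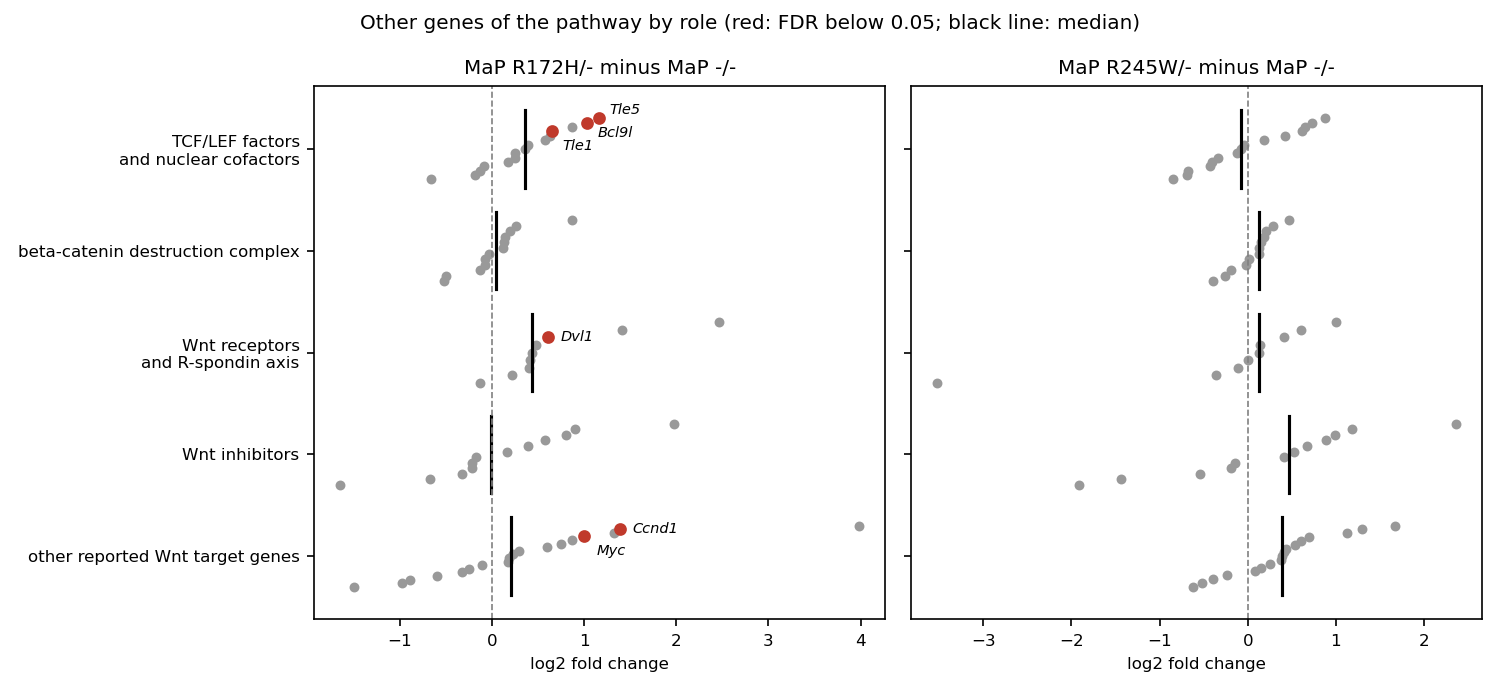
Log2 fold changes (horizontal axis) of the other pathway genes by role (rows) in MaP R172H/- against null (left) and MaP R245W/- against null tumors (right); each point is 1 gene, red marks an FDR below 0.05 and black lines are medians. The 6 red points, all to the right of 0, are Tle1, Bcl9l, Tle5, Dvl1, Myc and Ccnd1 in the left panel.

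Several marker lists leaned one way in this comparison. All 12 luminal markers had a positive fold change, but none passed the FDR and 2 had an unadjusted p below 0.05, and 7 of 8 basal markers tested were positive. Markers that passed were lower in MaP R172H/- tumors, namely 3 of 10 for fibroblasts, 2 of 8 for endothelial cells, 2 of 8 for macrophages and 1 of 8 for proliferation. Of all genes tested, 4.73% were lower at this FDR. The fold change was positive for 5 of 10 fibroblast, 4 of 8 macrophage and 3 of 8 proliferation markers, so the markers that passed do not stand for these 3 lists. None of the 8 endothelial and 8 adipocyte markers was positive. Beyond the luminal and T cell scores, the part of these lists in the pathway genes was not tested. With the luminal score as a covariate 8 of 66 pathway genes passed, 12.1% beside 9.09% of all genes. With a DESeq2 Wald test 9 of 72 passed, 12.5% beside 11.3% of all genes, which added Lgr6, Shisa2 and Ephb3, the last named after its value was seen. With the tumors of 1 mouse summed, 3 of 67 passed, namely Bcl9l, Myc and Ccnd1, or 4.48% beside 5.17% of all genes. Tle1, Tle5 and Dvl1 did not, with log2 fold changes of 0.64, 1.16 and 0.58 and an FDR of 0.0658, 0.0635 and 0.0812 from edgeR. Without a filter on low counts the FDR was 0.0733 for Tle1 and 0.0793 for Dvl1, and with 18 tumors in 1 fit it was 0.0934 for Tle1. With single tumors left out in turn 4 to 6 genes passed. Tle1 lost its call when any of YZ2, YZ3, YZ10, YZ11, JM836-T1, JM663-T2, JM833-T1 or JM833-T2 was left out, and Dvl1 when any tumor but YZ6 or JM779-T1 was. In MaP R245W/- against null tumors none of the 65 pathway genes tested passed with edgeR, and 5 had an unadjusted p below 0.05, that is 7.69% beside 11.8% of all genes. Of the 65, 39 (60%) were above 0, beside 51.8% of all genes, with a median of 0.15 beside 0.020 over all genes. A DESeq2 Wald test called 1 gene of 68, or 1.47% beside 1.75% of all genes, the corepressor Ctbp1 (log2 fold change 0.65, FDR = 0.0257), which is named after its value was seen.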

How the data were processed

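Total RNA of 18 mouse mammary tumors was depleted of ribosomal RNA (TruSeq Stranded Total RNA with Ribo-Zero Gold) and sequenced as paired ends. Per the submitters' processing notes and the study's methods, the authors checked reads with FastQC 0.11.9, aligned them with STAR 2.7.10b to GRCm39 and counted genes with RSEM 1.3.3 and GENCODE M34; the strand setting of the counting is not given in the sources used here. The deposited values are whole-number counts per gene, not normalized. Groups were taken from the genotype labels. The 10 genes and all lists were chosen with earlier results of these data known.

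Counts were scaled by TMM (trimmed mean of M values) over 18 tumors for CPM. Each mutant group was compared with the null group in a fit of its own, and both mutants in 1 fit of 18 tumors, with edgeR 4.0.16 (R 4.3.3; filterByExpr, quasi-likelihood test, Benjamini-Hochberg FDR over all genes tested, threshold 0.05). Tumors T1 and T2 of the same null mouse entered as separate samples, so these p-values take the 6 null tumors as independent although they came from 4 mice. Correlations used log2 CPM (prior count 2) averaged per mouse and centred on group means, with 100000 permutations within groups, two-sided. Intervals are 95%. The pathway genes named are those that passed the FDR in MaP R172H/- against null tumors and the 3 largest fold changes of each list. The genes most like Axin2 were named to rank 10 and for the other members to rank 3, except those for Tcf7, which are not reported here. Gene positions come from GENCODE M39 on GRCm39, which matched 56620 of 57126 genes by identifier; the 506 others held at most 0.0464% of a tumor's counts. Alternatives were DESeq2 1.42.0, other scalings and filters, summing tumors of a mouse, marker scores as covariates and leaving out each tumor. The edgeR steps were tested on simulated data made from these libraries. Python 3.11.15, numpy 2.4.6, scipy 1.17.1, pandas 2.3.3 and matplotlib 3.10.9 were used.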

Additional observations from a re-analysis of the deposited data

Results flagged for a closer look

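Among 81 groups of tumors examined for the named genes there were 14 in which the highest or the lowest tumor lay far from the others. For normally distributed values such a gap is expected in about 1 of 20 groups. CPM need not follow that distribution, and several genes were named for the largest fold changes of their lists. The count of 14 can therefore not be read against that rate. Among the 10 Wnt feedback and target genes, Lef1 stood at 25.2 CPM in RM0014 of MaP R245W/- with the next tumor at 6.39 CPM. In the null group Lef1 was at 21.6 CPM in JM833-T2, with the next at 7.77 CPM. Lgr5 was at 35.2 CPM in YZ4 of MaP R172H/-, where the next tumor had 6.71 CPM. Sp5 was at 3.88 CPM in the null tumor JM836-T1, with the next at 0.872 CPM.

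Of the other pathway genes, 4 such gaps in the MaP R172H/- group all fell on YZ7, whose luminal marker sum of 574 CPM was the lowest of that group. YZ7 had 76.1 CPM of Rspo1, an R-spondin gene, where the next tumor had 16.3 CPM, and 275.0 CPM of Shisa2, where the next had 98.8 CPM. It had 50.7 CPM of the ligand gene Wnt6, with the next at 3.15 CPM, and 18.8 CPM of Apc2, with the next at 5.05 CPM. In JM1126 of MaP R245W/-, which had the highest fibroblast marker sum, Wnt6 was at 1.85 CPM and Procr at 53.2 CPM, with the next tumors at 0.239 and 14.3 CPM. Apc2 was lowest in JM1564 at 1.92 CPM, and the next tumor had 2.67 CPM. Among null tumors, Rspo1 was at 12.03 CPM in JM833-T1 (next 1.38 CPM), the Wnt inhibitor gene Dkk2 at 60.6 CPM in JM779-T1 (next 9.46 CPM) and Myc at 78.2 CPM in JM833-T2 (next 55.7 CPM).

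The 2 missense groups differed from each other, at an FDR below 0.05 from edgeR, for 5 of the 67 pathway genes tested, which is 7.46% beside 9.4% of all genes and so no larger a share than the background. The coactivator gene Bcl9l was higher in MaP R172H/- tumors by 1.34 on the log2 scale (FDR = 0.00375) and Dvl3 by 0.80 (FDR = 0.0199), and both passed in all 27 alternatives. Rspo1 was higher by 5.96 (FDR = 0.0479), and by 3.94 (FDR = 0.0953) without YZ7. It was near the floor in MaP R245W/- tumors, at 0 to 14 counts, and its median in MaP R172H/- tumors was 1.03 CPM. Siah1a had a log2 difference of -0.72 (FDR = 0.0493), which became -0.58 without JM1564, and Kremen1 one of -0.76 (FDR = 0.0480), which became -0.52 without JM1126. Rspo1 passed in 7 of 26 alternatives, Siah1a in 4 and Kremen1 in 6 of 27. In this comparison the sequencing instrument and the genotype cannot be told apart.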

How the results depend on the processing

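None of the 10 genes passed an FDR below 0.05 in either comparison with null tumors under any alternative run. Between the mutants 0 to 1 passed with single tumors left out, the 1 being Tcf7 without JM1133. Of 213 values of single members in MaP R172H/- against null, 199 kept their direction and side of the threshold and 14 changed sign; of 194 in MaP R245W/- against null 164 did and 30 changed sign; of 266 between the mutants 254 did, 11 changed sign and 1 passed. The genes that changed sign had intervals that spanned 0, and the cause was not tested. No paired analysis was possible because the groups share no numbers that tie tumors to each other.

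For the other pathway genes in MaP R172H/- against null, 3 passed with tumors of 1 mouse summed and 4 to 6 with single tumors left out. In MaP R245W/- against null 1 passed with the DESeq2 Wald test. Correlated pairs numbered 0 by Spearman's rho, 4 without centring, 4 over 18 tumors and 0 to 3 with single mice left out (3 without JM1564). With the stricter motif 1 gene had a match. Over all genes, the DESeq2 Wald test called 3425 in MaP R172H/- against null, 427 in MaP R245W/- against null and 3690 between the mutants, where edgeR called 1760, 0 and 2114. For MaP R172H/- against null the count was 1051 with a log2 fold change of at least 1, 1126 with tumors of 1 mouse summed, 1059 among protein-coding genes and 1067 without JM663-T2. Between the mutants it was 1392 with that fold change, 1401 with at least 10 counts in every tumor and 875 among protein-coding genes. In MaP R245W/- against null it was 2 with 18 tumors in 1 fit, 2 without JM1564 and 3 without JM779-T1.

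Sign changes in MaP R172H/- against null were, with the T cell covariate, Lef1 0.017 and Nkd1 0.012, and with the luminal covariate Notum 0.31, Sp5 -0.67, Znrf3 -0.027 and Dkk2 0.47. For MaP R245W/- against null, Lef1 was 0.034 with DESeq2 size factors, 0.037 without a filter, 0.061 with the DESeq2 Wald test, 0.23 with tumors of 1 mouse summed, 0.73 with the T cell covariate and 0.0043 with 18 tumors in 1 fit. Nkd1 was -0.059 summed, -0.069 among protein-coding genes and -0.058 with the T cell covariate. Notum was 0.71 and Rnf43 -0.59 with the luminal covariate, and 0.0046 and -0.020 with the T cell covariate. Between the mutants Rnf43 was 0.34 with the luminal and Ctnnb1 0.042 with the T cell covariate.

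With single tumors left out, ranges that crossed 0 in MaP R172H/- against null were -1.19 to 0.17 for Lef1, -0.31 to 0.50 for Nkd1, -1.18 to 0.22 for Notum, -0.10 to 0.17 for Znrf3 and -1.88 to 0.038 for Dkk2. In MaP R245W/- against null they were -0.12 to 0.43 for Axin2, -1.24 to 0.67 for Lef1, -0.26 to 0.59 for Nkd1, -0.96 to 0.61 for Notum and -0.18 to 0.72 for Rnf43. Between the mutants they were -1.22 to 0.74 for Lef1, -0.29 to 0.17 for Nkd1, -0.61 to 1.14 for Lgr5, -1.05 to 0.42 for Notum, -0.51 to 0.39 for Rnf43 and -0.15 to 0.019 for Ctnnb1.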
